A study of Mus musculus with 2 samples.

Results

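Genes that mark interstitial cells of Cajal were followed through the developing mouse foregut: Kit, Kitl, Ano1 and Etv1, 4 of the 19550 genes measured. They were chosen by name, as known markers, with no threshold on a measured value, but with earlier results of these data known. All 4 were detected: Kit gave 5341 UMIs (unique molecular identifiers, each one counted transcript) in 1732 of 7808 cells, Ano1 3773 in 1965 cells, Etv1 4784 in 1732 cells and Kitl 6787 in 2784 cells.

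Interstitial cells of Cajal are mesenchymal cells of the gut wall that lie between enteric nerves and smooth muscle and set the slow rhythm of contraction. They depend on the receptor tyrosine kinase KIT, whose ligand, stem cell factor, is encoded by Kitl and made by neighbouring cells. ANO1 is the calcium-activated chloride channel that carries their pacemaker current, and ETV1 is an ETS transcription factor of the PEA3 group that works downstream of KIT in this lineage. KIT is also carried by mast cells, so Kit-positive immune cells were kept apart.

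Cells came from wild type C57BL/6 mice: esophagus, gastroesophageal squamocolumnar junction (GE-SCJ) and stomach taken from 6 mice at embryonic day 15 (E15), 2 at day 19 (E19), 2 pups aged 2 days and 3 adults aged 8 weeks. Mice were pooled within each region and stage and the pools were tagged and run as 1 library, which left 11 groups of 143 to 1403 cells; an adult stomach group was not analysed here. The numbers of mice are those of the deposited design, and the study's methods give a single, different number for its single-cell samples in general. Each group was therefore 1 sample, no test between groups was possible, and every interval given is an exact 95% interval that covers counting error only. Median depth was 10424.5 UMIs per cell (519 to 79817), no cell barcode was shared between groups, and adult cells were few (478, of which 46 were labelled Stromal).

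The 9 class labels were the authors' own and were built from the same counts. Their defining markers were checked: 7 smooth muscle genes summed to 37146 CPM (a gene's UMIs per 1000000 UMIs of the group) in Smooth Muscle and to 1980 or less under every other label. The label Stromal-2 held 1583 CPM of mesothelial genes (Upk3b, Wt1, Msln), against 7.46 in Stromal. Smooth Muscle held 2 of the authors' clusters, of which cluster 4 had 113 CPM of pericyte genes and cluster 11 had 1929, mostly Rgs5.

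Kit, at chr5:75574916-75656722 on the plus strand (GRCm38), reached its highest summed levels in Columnar Epithelial cells at 63.6 CPM (61.2 to 66.0) and in Stromal cells at 59.4 CPM (56.8 to 62.1), and these intervals overlapped. Endothelial cells followed at 47.2 CPM, Immune at 25.2, Smooth Muscle at 22.8 and Squamous Epithelial at 17.6, and Neural cells were lowest at 8.28 CPM. The same level was spread differently over cells: at least 1 Kit UMI was found in 60.7% of Columnar cells, whose median depth was 25118 UMIs, and in 12.8% of Stromal cells, with a median of 8940. With every cell thinned to 5000 UMIs, 23.9% of 1488 Columnar cells and 8.13% of 2940 Stromal cells kept a Kit UMI, against 4.17% of 336 Neural cells (median depth 7900), a class chosen after its values were seen as one that should lack the gene.

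The upstream sequences of Kit, Ano1 and Etv1 are shown because these genes were read in the same Stromal cells. Each is the 250 bases before a RefSeq transcript start (GRCm38.p6), printed in the direction of the gene, and all 4 genes had such a window. Capitals mark GGAA on either strand, the core letters of ETS sites.
Kit, chr5:75574737-75574986, plus strand: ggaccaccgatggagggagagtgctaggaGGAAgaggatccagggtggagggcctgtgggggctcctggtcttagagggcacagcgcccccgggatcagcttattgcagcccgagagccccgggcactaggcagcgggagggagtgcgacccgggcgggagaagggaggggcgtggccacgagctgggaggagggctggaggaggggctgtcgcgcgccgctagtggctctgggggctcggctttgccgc
Ano1, chr7:144738574-144738823, minus strand: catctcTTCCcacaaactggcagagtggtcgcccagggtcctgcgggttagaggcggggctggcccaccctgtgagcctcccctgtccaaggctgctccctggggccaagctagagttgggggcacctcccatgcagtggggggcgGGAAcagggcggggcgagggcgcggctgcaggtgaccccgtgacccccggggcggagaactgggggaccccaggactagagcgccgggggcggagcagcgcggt
Etv1, chr12:38779832-38780081, plus strand: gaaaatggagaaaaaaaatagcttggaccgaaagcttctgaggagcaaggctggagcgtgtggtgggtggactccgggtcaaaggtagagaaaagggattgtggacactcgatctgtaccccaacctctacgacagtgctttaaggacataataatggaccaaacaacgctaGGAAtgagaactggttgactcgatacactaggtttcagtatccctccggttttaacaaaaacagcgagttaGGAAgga
GGAA stood 1 time in the Kit window, 2 times in that of Ano1, 2 times in that of Etv1 and 3 times in that of Kitl, and 93.4% of all 32851 windows of this length held it. The longer ETS letters CCGGAA, which contain GGAA and stood in 12% of windows, were found 1 time for Kitl and not in the 3 windows printed. CATGTG, the letters of an E-box read by MITF (12.3% of windows), and TATAAA (12.4%) were not in the printed windows either, and TATAAA was found 1 time for Kitl. A second RefSeq start of Etv1, with its window at chr12:38783461-38783710, held CATGTG 1 time, and it held TATAAA and GGAA as often.

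Ano1, at chr7:144588549-144751974 on the minus strand, was highest in the mesothelium-rich Stromal-2 cells at 128 CPM (110 to 149), where 61.9% of 139 cells held it. Smooth Muscle followed at 59.0 CPM (54.5 to 63.7), Columnar Epithelial at 42.5 (40.6 to 44.5) and Stromal at 27.4 (25.6 to 29.2), and these intervals did not overlap. Neural cells, at 3.74 CPM and 3.34% positive, served as the class that should lack it.

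Etv1, at chr12:38779380-38870484 on the plus strand, had another order. Neural cells led at 147 CPM (135 to 160) and Stromal cells followed at 106 CPM (102 to 109), with 30.5% and 33.0% of cells positive. When CPM was computed in each cell and averaged, the order turned, with Stromal at 127 and Neural at 122. Smooth Muscle at 37.8 CPM and Immune at 38.5 had overlapping intervals, and both epithelial classes lay low, Columnar at 3.52 CPM with 4.03% of its deep cells positive.

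Kitl, at chr10:100015630-100100416 on the plus strand, was highest in Endothelial cells at 251 CPM (228 to 275) and next in Smooth Muscle at 169 CPM (161 to 177). Stromal-2 held 84.2 CPM, Columnar 63.9 and Stromal 39.2, and Immune cells were near the bottom at 15.7 CPM with 11.9% positive. By group of label, region and stage, the highest levels were 270 CPM of Ano1 (202 to 353) in the 27 Stromal-2 cells of the pup stomach, 198 CPM of Etv1 in E19 stomach Stromal cells and 192 in E15 stomach Neural cells, and 255 CPM of Kitl in E19 stomach Smooth Muscle beside 251 in E19 GE-SCJ Endothelial cells. The ligand and its receptor were thus highest under different labels, and within the mesenchyme Kitl was higher in Smooth Muscle and Kit in Stromal.

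**Figure D1:**
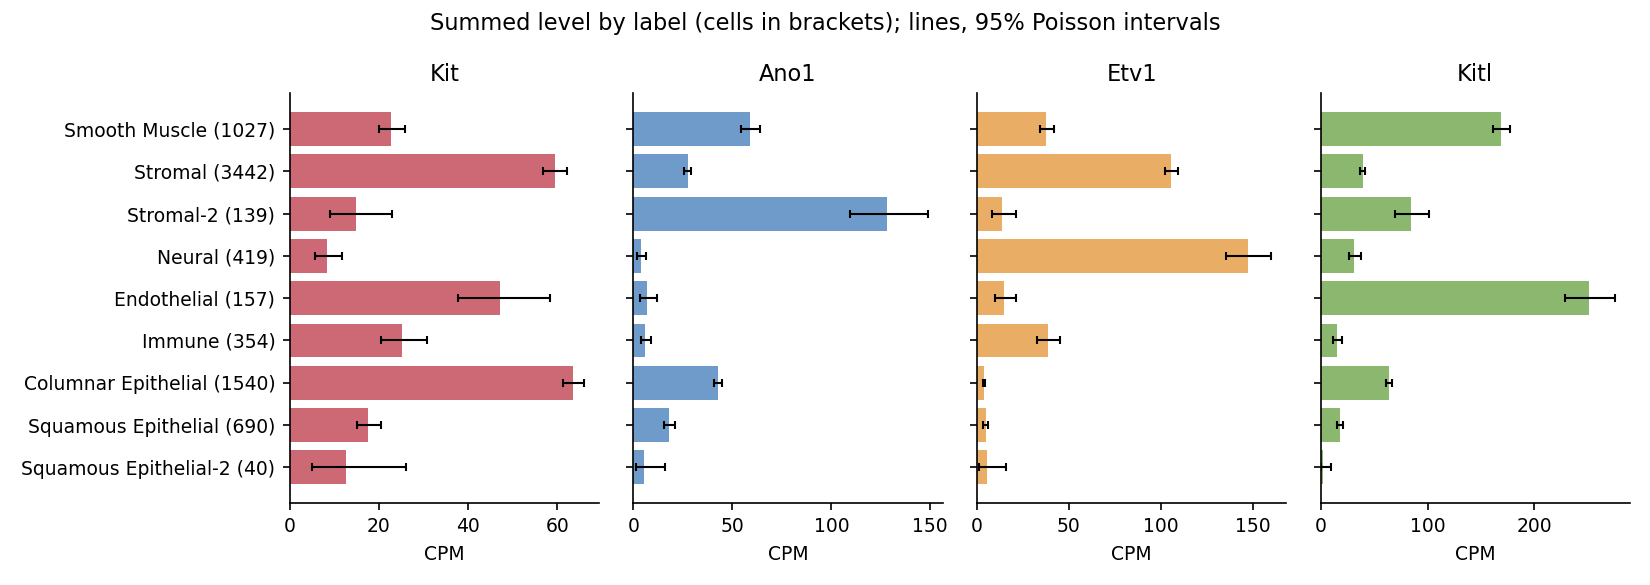
Summed level in CPM (x axis) of Kit, Ano1, Etv1 and Kitl under each of the 9 class labels, with the number of cells in brackets; bars are the level and lines its exact 95% Poisson interval. Kit is high in Stromal and Columnar Epithelial, Ano1 in Stromal-2 and Smooth Muscle, Etv1 in Neural and Stromal, and Kitl in Endothelial and Smooth Muscle.

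The question of which Stromal cells carry Kit was answered by counting UMIs per cell. Of the 3442 Stromal cells, 440 held Kit, of which 208 held 1 UMI and 119 held more than 5 (6 to 30, median 10). Those 119 cells, 3.46% of Stromal cells (2.87 to 4.12), held 71.4% of all Stromal Kit UMIs. They also held 26.1% of Stromal Ano1 UMIs, 25.1% of Etv1 UMIs and 8.73% of Kitl UMIs, although none of these 3 genes was used to choose them. Cells with more than 5 UMIs held 60% of Kit UMIs in Immune (5 cells), 36.3% in Columnar, 35.6% in Smooth Muscle and 9.52% in Endothelial.

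In Stromal cells Etv1 and Ano1 went up with the number of Kit UMIs. Etv1 was at 73.3 CPM (70.1 to 76.5) in cells without Kit, at 89.8 with 1 Kit UMI, at 124 with 2, at 425 with 3 to 5 and at 956 (894 to 1023) with more than 5, where 91.6% of cells were positive. Ano1 was at 19.6 CPM (18 to 21.3) without Kit, at 20.4 with 1 UMI, at 31.0 with 2, at 73.3 with 3 to 5 and at 258 (226 to 293) with more than 5, where 60.5% of cells were positive. With 1 Kit UMI the Ano1 interval overlapped that of Kit-negative cells, and with 3 or more it lay above it. Kitl also rose, from 33.7 CPM (31.5 to 35.9) without Kit to 123 (102 to 149) with more than 5. Depth ran the other way, with a median of 6403 UMIs in cells with more than 5 Kit UMIs and 9078 in cells without Kit. When cells were thinned to 5000 UMIs, Ano1 was found in 7.50% of Kit-negative cells and 56.8% of cells with more than 5 Kit UMIs, and Etv1 in 21.0% and 90.1%.

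Columnar and Smooth Muscle cells did not show this pattern for Ano1. In Columnar cells the share with Ano1 was 52.6% without Kit and 58.5% to 61.1% in the classes with Kit, with Etv1 at 3.46% to 5.56% throughout. In Smooth Muscle the Ano1 share was 32.8% without Kit and 28.6% to 50% with it, with intervals that overlapped, while the Etv1 share went from 21.5% (908 cells) to 70.0% (10 cells, interval 34.8 to 93.3).

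**Figure D2:**
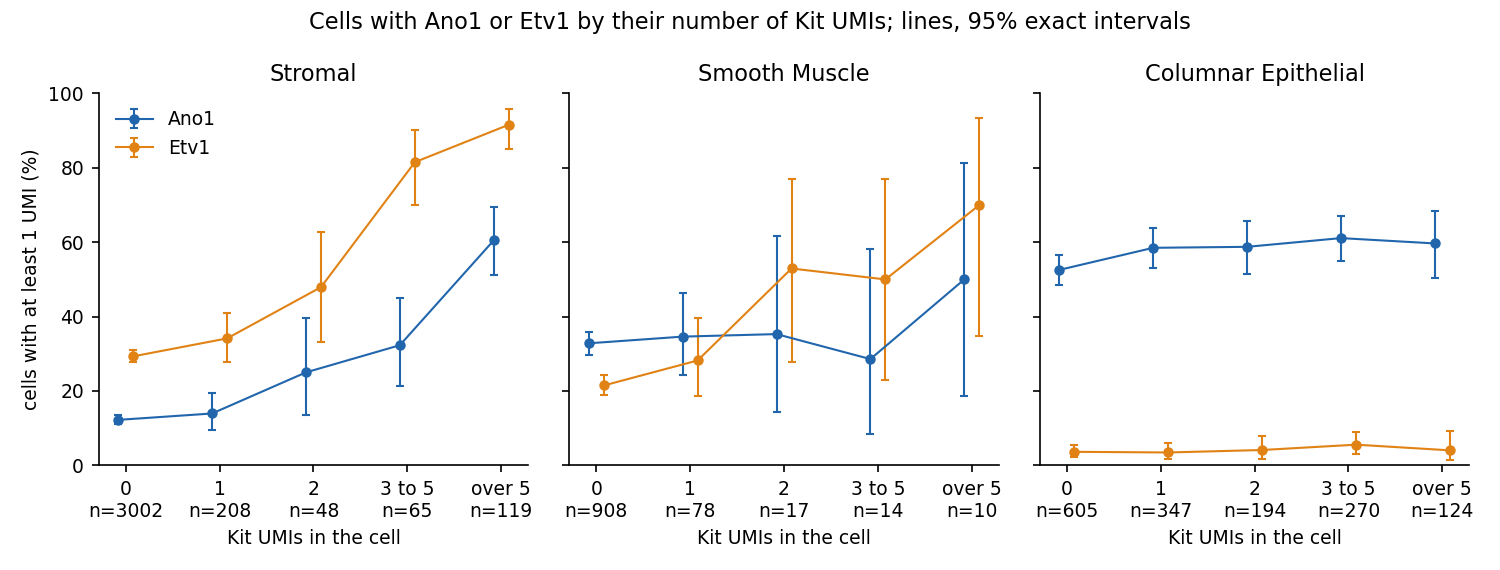
Share of cells with at least 1 UMI of Ano1 or Etv1 (y axis, %) by the number of Kit UMIs in the cell (x axis, with the number of cells), in Stromal, Smooth Muscle and Columnar Epithelial cells; lines are exact 95% Clopper-Pearson intervals. In Stromal cells the Ano1 share goes from 12.2% to 60.5% and the Etv1 share from 29.3% to 91.6%, and in Columnar cells they stay between 52.6% and 61.1% and between 3.46% and 5.56%.

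Kit and Ano1 were found in the same cell in 134 Stromal cells (3.89%, 3.27 to 4.59), 42 Smooth Muscle cells (4.09%, 2.96 to 5.49) and 556 Columnar cells (36.1%, 33.7 to 38.6). At a common depth of 5000 UMIs these shares were 2.18%, 1.21% and 4.37%. In Stromal cells Ano1 was found in 30.5% of Kit-positive and 12.2% of Kit-negative cells (26.8% and 7.52% at the common depth), and these intervals did not overlap. Of the 134 Stromal cells with both genes, 29 held 1 Kit UMI. Among all 208 Stromal cells with 1 Kit UMI, 13.9% held Ano1 (9.54 to 19.4), which overlapped the share of Kit-negative cells. In Smooth Muscle the shares were 35.3% and 32.8%, and at the common depth 15.2% and 23.7%; in Columnar cells they were 59.5% and 52.6%, and at the common depth 18.3% and 19.3%. In both labels the intervals at the common depth overlapped. In Endothelial cells Ano1 was found in 14.6% of 48 Kit-positive cells (6.07 to 27.8) and 0.917% of Kit-negative cells (0.02 to 5.01), on 7 cells with both genes. The Kit-positive cells were deeper, with a median of 12834.5 UMIs against 7269. At the common depth the Endothelial shares were 13.0% of 23 cells (2.78 to 33.6) and 0% (0 to 4.30), on 3 cells with both, and these intervals overlapped.

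Etv1, which the pair did not use, separated the labels further, but the whole labels also differed in it. Over all their cells it was found in 33.0% of Stromal, 23.4% of Smooth Muscle and 4.03% of Columnar cells. The Columnar share was within the interval of Columnar cells with Kit and Ano1. Etv1 was present in 107 of the 134 Stromal cells with Kit and Ano1 (79.9%, 72.1 to 86.3), in 19 of the 42 Smooth Muscle cells (45.2%, 29.8 to 61.3) and in 21 of the 556 Columnar cells (3.78%, 2.35 to 5.72). All 3 genes together were thus read in 3.11% of Stromal cells. Of the 119 Stromal cells with more than 5 Kit UMIs, 109 held Etv1, 72 held Ano1 and 68 held both.

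Nearly all of the Kit-rich Stromal cells fell in 1 of the 4 clusters that the authors' labels join as Stromal. Cluster 3 held 114 of the 119 cells with more than 5 Kit UMIs and 113 of the 134 cells with Kit and Ano1, and its Kit level was 232 CPM against 6.53 to 27.8 in clusters 0, 1 and 9. Kit was among the genes that built these clusters, so its level there is a description. Etv1 was not limited to cluster 3: cluster 0 held 129 CPM of it with 8.26 CPM of Kit, so most Etv1-positive Stromal cells of cluster 0 carried no Kit (5.75% of its cells were Kit-positive and 48.7% Etv1-positive).

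By region, Stromal Kit was highest in the stomach at every stage measured. At E15 it was 152 CPM (139 to 165) in the stomach, 40.9 (34.7 to 47.8) at the GE-SCJ and 37.0 (31.2 to 43.6) in the esophagus. At E19 it was 71.1 CPM, 47.2 and 22.8 in the same order, and in the pup 170, 88.9 and 66.9. The log2 ratio of stomach over esophagus was 2.03 (1.76 to 2.30) for E15, 1.64 (1.37 to 1.90) for E19 and 1.33 (0.78 to 1.91) for the pup. The pup levels rested on few cells, and their intervals do not cover the spread between cells. In the pup stomach 5 cells held 65 of 76 Kit UMIs, at the GE-SCJ 2 cells held 30 of 35 and in the esophagus 2 cells held 24 of 42. The GE-SCJ lay with the esophagus at E15 (log2 ratio 0.14, -0.20 to 0.48) and above it at E19 (1.05, 0.76 to 1.34). These intervals do not cover the spread between cells either. At E19, 15 cells held 184 of 270 Kit UMIs at the GE-SCJ and 9 cells held 108 of 159 in the esophagus. At E15, 6 cells held 58 of 154 and 8 cells held 114 of 141. In the adult esophagus 3 Kit UMIs were found in 31 Stromal cells and none in 15 cells of the adult GE-SCJ.

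With all stages together, the share of Kit-rich cells was also highest in the stomach. Cells with more than 5 Kit UMIs made up 77 of 1139 Stromal cells in the stomach (6.76%, 5.37 to 8.38), 23 of 1035 at the GE-SCJ (2.22%, 1.41 to 3.32) and 19 of 1268 in the esophagus (1.5%, 0.90 to 2.33), and the intervals of the last pair overlapped. In the stomach they were 37 of 360 cells at E15 (10.3%, 7.34 to 13.9), 35 of 701 at E19 (4.99%, 3.50 to 6.88) and 5 of 78 in the pup (6.41%, 2.11 to 14.3). At E15 the GE-SCJ (1.71%, 0.63 to 3.69) and the esophagus (2.31%, 1.00 to 4.49) lay below the stomach. At E19 the GE-SCJ (2.55%, 1.43 to 4.17) overlapped the stomach, and the esophagus (1.22%, 0.56 to 2.30) lay below it. In the pup the GE-SCJ (2.44%, 0.30 to 8.53) and the esophagus (1.32%, 0.16 to 4.70) both overlapped the stomach. None of the 46 adult Stromal cells was among them, which allows a share of up to 6.52%. Within cluster 3 alone, a cluster that Kit helps to lead, the log2 ratio of Kit in stomach over esophagus was 2.22 for E15, -0.015 for E19 and 1.18 for the pup.

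Between E15 and E19 the stomach Kit level was lower by a log2 ratio of -1.09 (-1.27 to -0.91), and the esophagus by -0.70 (-1.04 to -0.36), while the GE-SCJ stayed within counting error (0.20, -0.09 to 0.50). In cluster 3 alone the stomach ratio was -0.15. The pup was above E19 in all 3 regions (log2 ratios 1.58, 0.95 and 1.28 in esophagus, GE-SCJ and stomach). Pup Stromal cells were also of another makeup: 282 of 311 were in cluster 9, and the 13 in cluster 3 held 113 of the 153 pup Kit UMIs. The pup level of the whole label thus rested on few cells.

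Stromal Etv1 had the same regional order. It was 152 CPM in the stomach, 86.7 at the GE-SCJ and 34.4 in the esophagus at E15, and 198, 138 and 20.5 at E19. The stomach stood above the esophagus by a log2 ratio of 2.14 (1.86 to 2.42) for E15, 3.26 (3.02 to 3.52) for E19 and 1.24 (0.60 to 1.89) for the pup. Unlike Kit, Etv1 was higher at E19 than at E15 in the stomach (0.38, 0.24 to 0.52) and at the GE-SCJ (0.67, 0.48 to 0.86). In cluster 3 alone the stomach to esophagus ratio at E19 was 1.60, so here the regional difference was also present inside the cluster. The adult esophagus held 124 CPM of Etv1 (75.6 to 191) with 3 Kit UMIs.

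At E15 Stromal Ano1 was alike over the regions, at 21.2 CPM in the stomach, 27.3 at the GE-SCJ and 22.3 in the esophagus, with overlapping intervals. At E19 it was 30.7, 41.1 and 17.5 CPM, above the esophagus by log2 ratios of 0.81 (0.48 to 1.14) in the stomach and 1.23 (0.91 to 1.55) at the GE-SCJ. Kit and Etv1 thus stood apart by region at E15, where Ano1 did not beyond its counting error.

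The E15 and E19 levels were also read in Kit-positive and Kit-negative Stromal cells apart. In the stomach the Kit-positive cells' Ano1 level was 52.1 CPM (39.6 to 67.2) in 110 cells at E15 and 103 CPM (80.7 to 129) in 93 cells at E19, and their Etv1 level was 283 CPM (253 to 316) and 745 CPM (683 to 810.5). At the GE-SCJ Ano1 went from 38.2 CPM (23.9 to 57.8) in 57 cells to 146 CPM (118 to 178) in 66 cells, and Etv1 from 146 CPM to 354. Kit-negative cells were lower in both genes but also went up in the stomach, Ano1 from 8.19 CPM (5.14 to 12.4) to 21.9 (18.3 to 26.0) and Etv1 from 96.8 to 131, and at the GE-SCJ, where Ano1 was 25.4 and 27.3 CPM with overlapping intervals, Etv1 went from 76.1 to 110.0. In Kit-positive cells of the esophagus neither gene went up: Ano1 was 66.8 CPM in 28 cells at E15 and 49.5 in 49 cells at E19, and Etv1 went from 192 CPM (148 to 244) to 68.5 (48.0 to 94.9). The share of Kit-positive Stromal cells with Ano1 went from 22.7% to 36.6% in the stomach, from 26.3% to 50% at the GE-SCJ and from 35.7% to 18.4% in the esophagus, with overlapping intervals in each region. The Kit-positive cells differed in how many held more than 5 Kit UMIs. These were 37 of 110 at E15 and 35 of 93 at E19 in the stomach. At the GE-SCJ they were 6 of 57 and 15 of 66, and in the esophagus 8 of 28 and 9 of 49. The part of this makeup in the Ano1 and Etv1 levels was not tested.

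Stromal cells with Kit and Ano1 were found in every region before birth. In the stomach they were 25 of 360 cells at E15 (6.94%) and 34 of 701 at E19 (4.85%). At the GE-SCJ they were 15 of 350 (4.29%) and 33 of 588 (5.61%), and in the esophagus 10 of 347 (2.88%) and 9 of 739 (1.22%). The pup gave 4 of 78 (5.13%), 2 of 82 (2.44%) and 2 of 151 (1.32%) in that order. Within each region the intervals of E15, E19 and pup overlapped. These shares are at own depth, and pup cells were shallower. The adult gave none in 46 cells, which allows up to 6.52%.

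In Stromal cells Kitl had no fixed regional order. It was 33.3 CPM in the esophagus, 24.7 at the GE-SCJ and 47.1 in the stomach at E15, and 23.6, 54.5 and 42.0 at E19. Its pup values were 82.8 (61.9 to 109), 33.0 (17.6 to 56.5) and 76.1 CPM (52.7 to 106), so esophagus and stomach then overlapped. The GE-SCJ interval lay below that of the esophagus and overlapped that of the stomach.

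Smooth Muscle held more Kitl than Stromal cells did in every region before birth. Kitl was 114 to 151 CPM in the 3 regions at E15 and 205 to 255 at E19, higher by log2 ratios of 1.03 (0.64 to 1.41) in the esophagus, 0.60 (0.37 to 0.83) at the GE-SCJ and 0.75 (0.53 to 0.98) in the stomach. In the pup it was 50.2 CPM in the stomach, 59.7 at the GE-SCJ and 174 in the esophagus. Cluster makeup also differed in the pup. In the Rgs5-rich cluster 11, where pup Kitl was 30.4 CPM, were 101 of 113 pup stomach cells and 95 of 119 pup GE-SCJ cells. In cluster 4, where pup Kitl was 167 CPM, were 19 of 22 pup esophagus cells. Stomach Kitl, pup over E19, had a log2 ratio of -2.30 in the whole label and -0.65 in cluster 4 alone, on 12 pup cells. The part of cluster makeup in the pup values was not tested. Before birth cluster 4 held 328 of 335 and 381 of 392 Smooth Muscle cells, so the E15 to E19 difference was also present within it (138 and 232 CPM).

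Smooth Muscle Ano1 went the other way before birth. It was 88.9 CPM in the stomach and 91.2 at the GE-SCJ at E15 against 32.6 and 32.3 at E19, log2 ratios of -1.43 (-1.88 to -1.0) and -1.49 (-1.90 to -1.09). The esophagus, at 44.1 CPM at E15, had about the same level at E19 (36.8). In the pup Ano1 was 91.4 CPM (68.0 to 120) in the stomach and 63.2 (44.3 to 87.5) at the GE-SCJ. The pup esophagus was at 8.72 CPM (0.22 to 48.6), from 1 UMI in 22 cells. The esophagus had its highest level in the adult, 204 CPM (142 to 284) from 35 UMIs in 30 cells, of which 23 were in cluster 11. Kit in Smooth Muscle stayed at 8.78 to 32.7 CPM in the groups where it was found.

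**Figure D3:**
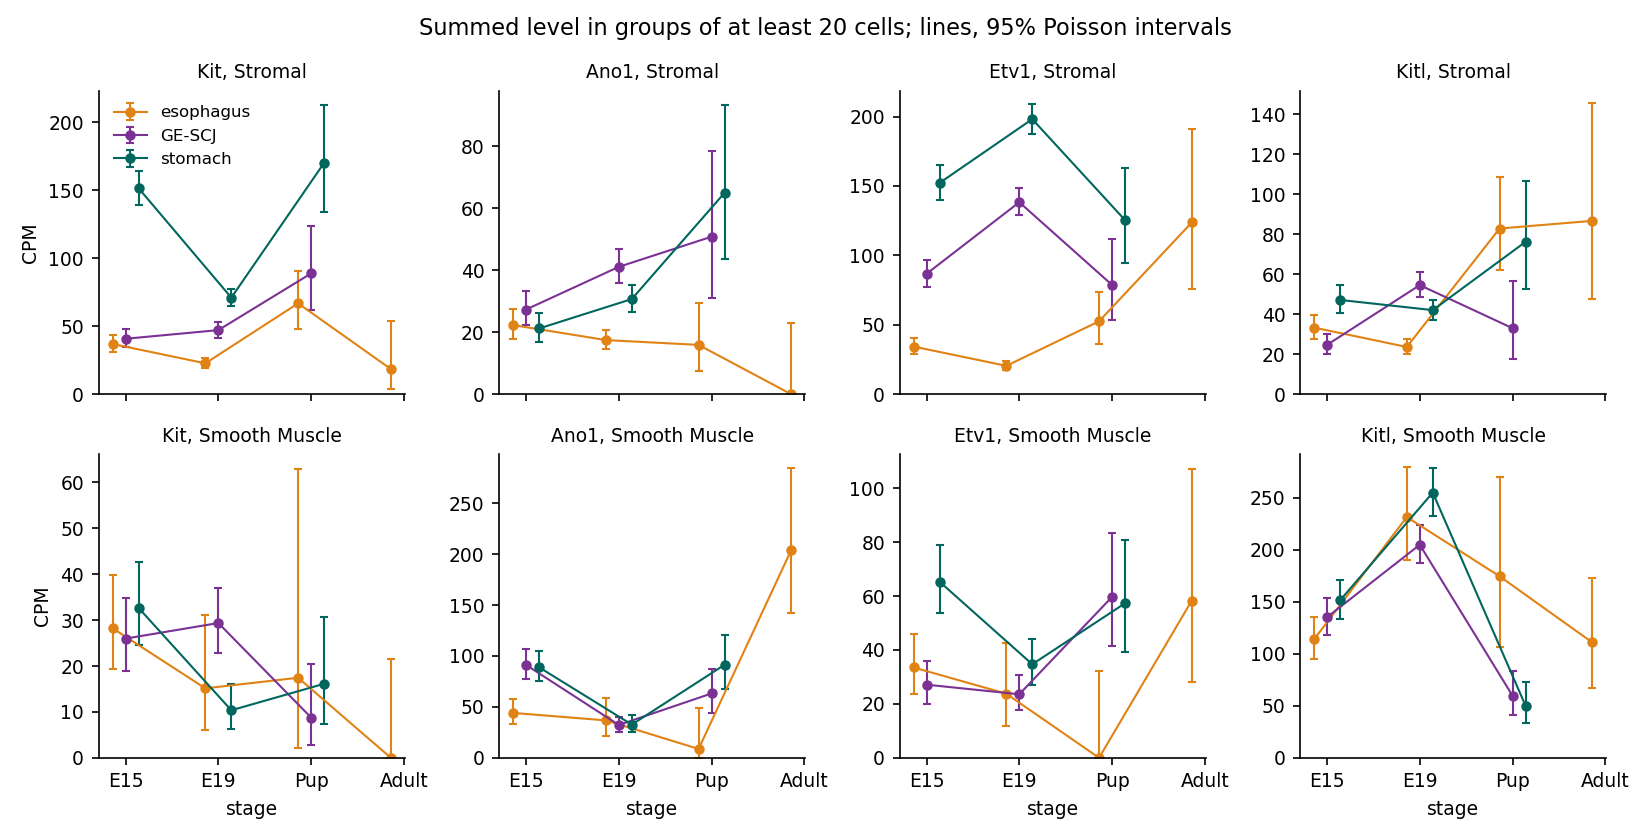
Summed level in CPM (y axis) of the 4 genes in Stromal (upper row) and Smooth Muscle cells (lower row) by stage (x axis), for groups of at least 20 cells of esophagus, GE-SCJ and stomach; lines through points are exact 95% Poisson intervals. Stromal Kit and Etv1 lie highest in the stomach at E15 and E19, Smooth Muscle Kitl is highest at E19, and Smooth Muscle Ano1 is lower at E19 than at E15 in stomach and GE-SCJ.

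The Columnar Kit level was spread over most cells and followed another axis. At the GE-SCJ it was 114 CPM (96.6 to 134) in E15 cells, 65.5 in E19 cells and 71.4 in pup cells, against 55.9, 50.4 and 65.9 CPM in the stomach. Cluster 12, which held 9459 CPM of Atp4a and 8200 CPM of Atp4b, the subunits of the gastric proton pump, had 136 CPM of Kit (127 to 146) with 88.1% of its 194 cells positive, against 57.8 and 42.1 CPM in clusters 2 and 5. In that cluster Ano1 and Kitl were low, at 19 and 23.7 CPM against 54.5 and 72.4 in cluster 2. Columnar Ano1 was lower in the pup than at E19, 27.7 against 51.0 CPM in the stomach and 34.3 against 59.6 at the GE-SCJ (log2 ratios -0.88 and -0.80).

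What else marked cells with Kit and Ano1 was read over all genes with at least 20 UMIs. Called means at least 2-fold higher or lower than in the other cells of the same label, by a ratio of summed levels. A UMI was added to each sum before that ratio was taken, so calls of scarce genes need not follow their CPM. Hdc in Smooth Muscle, at 0 CPM against 2.25, had a log2 ratio of -0.58 and was not called lower. Since Kit and Ano1 chose the cells, neither is counted. Over the 3 labels pooled, 965 of 16365 genes were higher (5.9%) and 3391 were lower (20.7%), but 556 of those 732 cells were Columnar, and with the other cells weighted to the same makeup of label, region and stage the counts were 209 and 695. Each label was therefore read alone, a choice made after the pooled counts were seen. In Stromal, 1533 of 14642 genes were higher (10.5%) and 558 lower (3.81%), and the median log2 ratio of all genes was 0.16. With the other Stromal cells weighted to the same regions and stages, 698 were higher and 891 lower. Both weightings, pooled and Stromal, also scaled the other cells to about the UMI total of the cells with both genes. The added UMI then weighed about alike on each side, and the parts of makeup and of this scaling were not told apart. With a minimum of 50 UMIs, 838 were higher and 537 lower. The 134 cells with both genes held 1346288 UMIs and the other Stromal cells 31108688, so the added UMI raised ratios most where UMIs were few. Its part in the counts and in the median was not tested.

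Of the genes for channels and signals of interstitial cells of Cajal, 7 of 17 tested were higher in Stromal cells with both genes and 0 were lower, with a median log2 ratio of 0.95. Of all genes tested in Stromal cells, 10.5% were higher and 3.81% lower. The lists were chosen with earlier results of these data known, and they were not counted with the other cells weighted by region and stage. Etv1 was at 585 CPM against 85.0 (log2 ratio 2.78, 2.67 to 2.90). The muscarinic receptor genes Chrm3 (40.1 against 3.12 CPM) and Chrm2 (58.7 against 16.6) were higher, as was Tacr1, the receptor of substance P, on 9 UMIs. Pde3a, a phosphodiesterase, was at 277 CPM against 69.4 and Slc12a2, the sodium-potassium-chloride cotransporter NKCC1, at 277 against 76.4, and Lrig1, a transmembrane regulator of receptor kinases, at 61.7 against 26.9. Kitl (69.1 against 37.9 CPM), the cGMP genes Gucy1b1 and Prkg1, and the calcium channel genes Cacna1c and Cacna1h were below the 2-fold limit, and the pacemaker channel gene Hcn4 had no UMI in these cells.

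Of the PEA3 factors and the feedback genes of receptor kinase signalling, 5 of 6 were higher, with a median of 2.13: Etv1, Etv4 (log2 ratio 2.46), Etv5 (1.17), Spry4 (2.64) and Dusp6 (1.81), with Spry2 at 0.78. The share of all genes was 10.5%, and Etv1 is counted in this list and in that of the channels. None of 7 other anoctamins passed the limit (median -0.01).

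**Figure D4:**
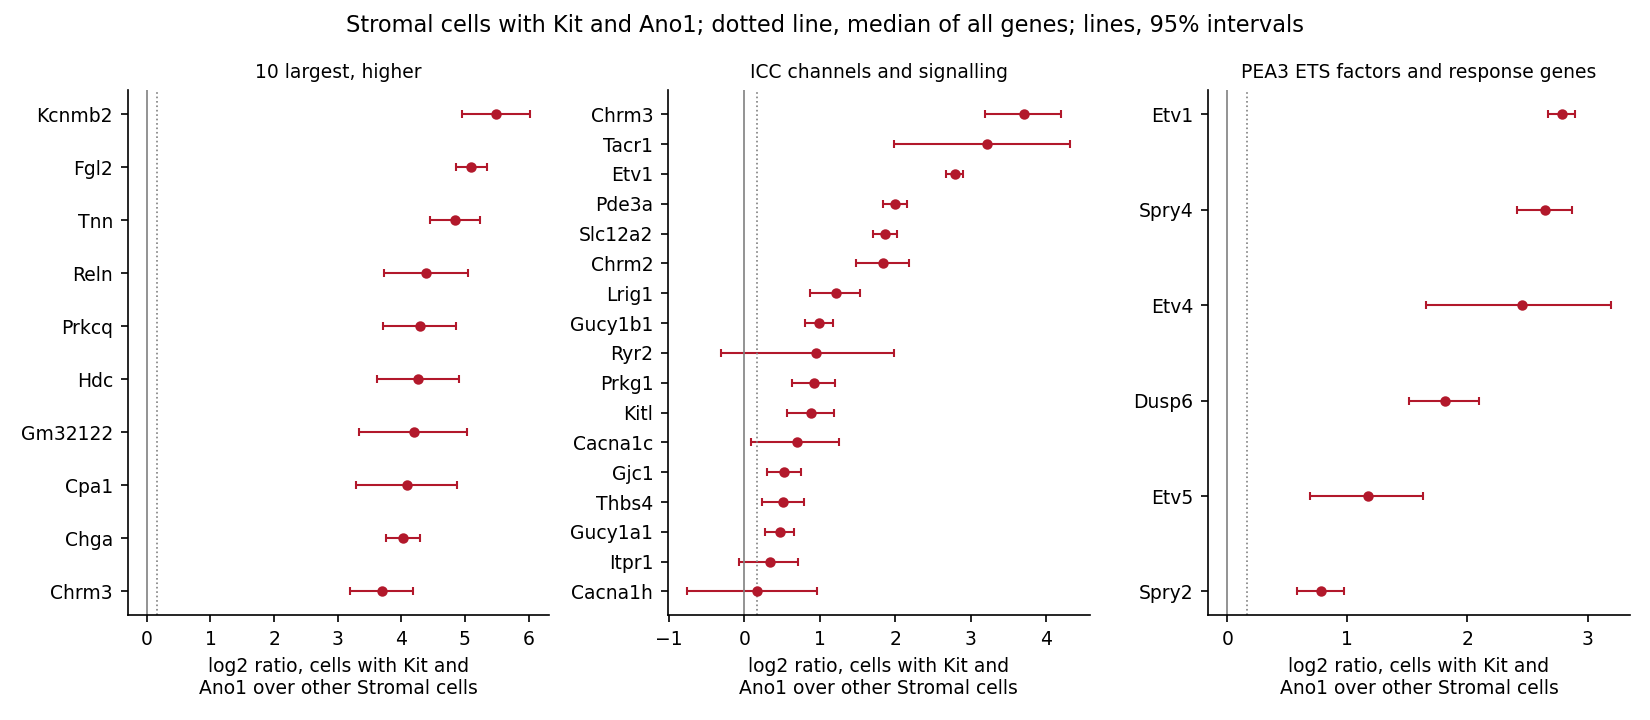
Log2 ratio (x axis) of summed levels in the 134 Stromal cells with Kit and Ano1 over the other 3308, for the 10 highest genes with at least 50 UMIs, the genes for channels and signals of interstitial cells of Cajal, and the PEA3 factors with their response genes; lines are 95% intervals and the dotted line is the median of all genes, 0.16. Chrm3, Tacr1 and Etv1 lead the channel list, and Etv1, Spry4 and Etv4 the PEA3 list.

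The 10 highest genes over the whole Stromal table were Kcnmb2, Fgl2, Tnn, Reln, Prkcq, Hdc, Gm32122, Cpa1, Chga and Chrm3. Kcnmb2, a beta subunit of the large calcium-activated potassium channel, was at 66.9 CPM against 1.48 (log2 ratio 5.48, 4.96 to 6.02) and was found in 40 of the 134 cells. Fgl2, a fibrinogen-like secreted protein, was at 254 CPM against 7.39 in 44 cells, Tnn, the matrix protein tenascin-N, at 90.6 against 3.15 in 49 cells, and Prkcq, protein kinase C theta, at 36.4 against 1.86 in 28 cells. These 4 genes were spread over many cells, whereas Hdc rested on 3 cells, Chga on 6, Cpa1 on 7 and Reln on 8. Some were not particular to these cells. In the whole Smooth Muscle label Fgl2 was at 109 CPM, Tnn at 69.0 and Chrm3 at 29.8, and Endothelial cells held 194 CPM of Fgl2. Smooth Muscle cells with Kit and Ano1 had log2 ratios of -0.20, 0.32 and -0.26 for these 3 genes. Kcnmb2 and Prkcq were low in Smooth Muscle, at 2.67 and 1.29 CPM.

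Some of these genes were also high in Kit-rich cells without Ano1. In Stromal cells with more than 5 Kit UMIs, Kcnmb2 was at 101 CPM with Ano1 and 55.2 without, Chrm3 at 87.3 and 49.0, and Gm32122 at 29.7 and 55.2, against 0.33, 1.98 and 0.041 CPM in cells without either gene. Fgl2 (499 against 98.1 CPM), Tnn (178 against 21.5) and Prkcq (73.3 against 15.3) were higher where Ano1 was present. In cells with Ano1 and no Kit, Kcnmb2 was at 0.24 CPM and Chrm3 at 2.45, near their levels in cells with neither gene. Cpa1, Chga, Hdc and Reln had no such order: without Ano1, Chga was at 272 CPM with 2 Kit UMIs and at 0 with more than 5.

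The 10 lowest were Bcat1, Serpina3n, Fmo2, Bmp3, Wnt2, Has1, Spon2, Gabrg3, Cilp and Tek. Fmo2, a flavin monooxygenase, was at 18.6 CPM against 246 and Spon2, a matrix protein, at 13.4 against 148. Bcat1, Serpina3n, Wnt2 and Has1 had no UMI in these cells, at least 5.03-fold, 5.01-fold, 3.88-fold and 3.74-fold lower when the floor of 3 counts is used. Of the fibroblast markers 4 of 5 were lower (Col1a1, Col3a1, Dcn, Lum), 8069 CPM in sum against 20681, and 3 of 4 markers of PDGFRA-positive interstitial cells were lower (Cd34, Kcnn3, P2ry1). The share of all genes that were lower was 3.81%. The 7 smooth muscle genes summed to 1878 CPM against 1984, with none called.

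Markers of other cells were read beside this. Epithelial genes summed to 115 CPM in the Stromal cells with both genes and 116 in the rest, with 0 of 3 called. The mast cell list summed to 31.2 CPM against 2.06, of which Hdc made 28.2 from 3 cells, and the proteases Cma1, Mcpt4 and Mcpt2 had no UMI. While 10.5% of all genes were higher, the lists of other cells gave these counts. Of the macrophage list 2 of 5 were higher (16.3 CPM in sum against 14.2) and of the mesothelial list 3 of 3 (16.3 against 7.07). Of the enteric neuron list 2 of 3 tested were higher, where Hand2 made 145 of 151 CPM. Genes of the macrophage and mesothelial lists held as few as 1 and 4 UMIs in the cells with Kit and Ano1, where the added UMI weighs most. The part of other cell types in the result was not tested.

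In Smooth Muscle, 1089 of 12522 genes were higher in the 42 cells with both genes (8.7%) and 365 lower (2.91%). These cells were deeper, with a median of 13111 UMIs against 9710, and 30 of the 42 were kept when possible doublets were left out. The sums were unequal here too, 635541 UMIs against 10215152, so the added UMI again weighed most where UMIs were few. PEA3 genes were higher for 4 of 5 tested (median 1.29), and 1 of 17 channel genes was called, Etv1. The epithelial markers were also higher, 3 of 3, at 363 CPM in sum against 122, and epithelial genes such as Cldn7, Sprr2a3, Epcam and Klf5 stood among the 10 highest, each in 5 to 10 of the 42 cells. Cym, the stomach protease chymosin, was at 7046 CPM against 1281, and it was found in all 42 and in 100% of the other 985 cells. Their part in the result was not tested. The lowest genes included Igfbp3 (1.57 CPM against 94.4) and Ebf1, and 2 of 3 pericyte markers were lower.

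In Columnar cells few genes separated the cells with both: 81 of 14378 were higher (0.563%) and 476 lower (3.31%), with a median depth of 30680 UMIs against 22121. Of the channel genes 1 of 16 was higher, Chrm2, and 2 were lower, one of them Etv1 at 1.78 CPM against 4.89. Slc5a2 and Hoxc4 led the higher genes, at 3.40 against 1.04 and 8.11 against 2.82 CPM. The hormone gene Gast was lower in summed level, at 3.14 against 341 CPM. It was found in 45 of the 556 cells with both and in 6.81% of the other cells, so the other cells' level rested on few cells.

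Kit in Immune cells was a separate matter. It was found in 33 of 354 cells (9.32%, 6.50 to 12.8), of which 24 held 1 UMI and 9 held 2 to 17. The mast cell proteases Cpa3, Cma1 and Tpsb2 gave 1036 UMIs in 5 of those 9 cells, none in the 24 cells with 1 Kit UMI, and 5 UMIs in 1 of 321 Kit-negative cells. Cells with 14, 13, 7, 6 and 4 Kit UMIs carried 462, 38, 26, 508 and 2 protease UMIs, and the first 4 of these also carried Hdc, which makes histamine, and Gata2, with 0 to 1 UMI of the complement genes C1qa and C1qb.

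The Immune cell with the most Kit, 17 UMIs from the E15 stomach, had no protease UMI, 36 UMIs of the macrophage gene C1qa, 3 of Ano1 and 4 of Etv1. Ano1 was found in 4 of the 33 Kit-positive Immune cells, all 4 with C1qa and none with a mast cell protease. These 4 cells held 18582, 39210, 48422 and 60963 UMIs, against a median of 8266.5 in Immune cells, and 1 of them was kept when possible doublets were left out. Of the 9 cells with at least 2 Kit UMIs, 5 came from the E19 GE-SCJ, 2 from the E15 stomach and 2 from the E19 stomach. Mast cell proteases were rare in the mesenchyme, in 16 of 3442 Stromal cells, of which 7 held Kit and 3 held Kit and Ano1.

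**Figure D5:**
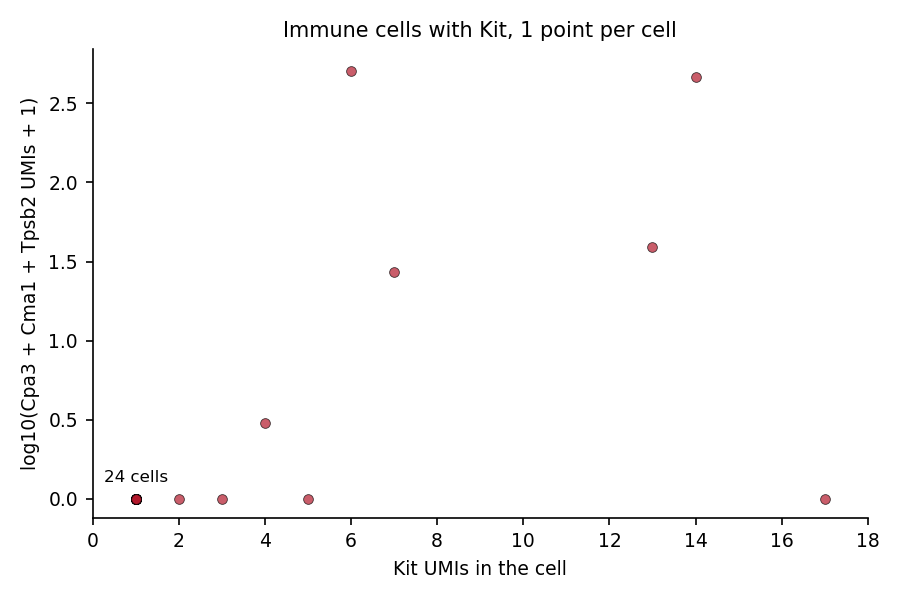
Kit UMIs (x axis) and the log10 of summed Cpa3, Cma1 and Tpsb2 UMIs plus 1 (y axis) in each of the 33 Kit-positive Immune cells; 24 cells with 1 Kit UMI lie together at 0. Of 9 cells with 2 or more Kit UMIs, 5 carry these proteases and 4, the one with 17 Kit UMIs included, do not.

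Across the 55 groups of label, region and stage with at least 20 cells, the 4 genes did not run together: Pearson's r of log2(CPM + 10) was 0.20 for Kit and Ano1, -0.05 for Kit and Etv1, 0.27 for Kit and Kitl and 0.48 for Ano1 and Kitl. In the 20 Stromal and Smooth Muscle groups alone Kit and Ano1 were at -0.21, Kit and Etv1 at 0.50 and Kit and Kitl at -0.40. The groups share 1 library and their labels, so these values only describe the pattern. Of 14658 genes, those most like Kit were Fkbp11 (r = 0.66), Ssr2, Copb2, Pdia5 and Sri. Those most like Ano1 were Arhgap6 (0.72), Ctf1, Ybx2, Pawr and Gstt1, those most like Etv1 were Cep170 (0.86), Zeb2, Arhgef40, Cnrip1 and Dpysl2, and those most like Kitl were Csrp2 (0.78), Rbpms, Fmc1, Ccdc85b and Bok.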

How the data were processed

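A single 10x Genomics pool of hashtagged cells was analysed. The authors aligned it with Cell Ranger 6.1.1 to mm10, removed cells of very low or very high gene and UMI number or high mitochondrial share, and deposited raw UMI counts for 7808 cells; whether counting used strand is not given in the sources used here. Cluster numbers, class labels, region, stage and the percent of mitochondrial UMIs per cell (at most 19.7) were used as the authors deposited them. The library of hashtags was used only through these sample names. Doublets were left as the authors' filter left them.

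Counts were summed per label, region and stage (numpy 2.4.6, pandas 2.3.3 and scipy 1.17.1 under Python 3.11.15, figures with matplotlib 3.10.9) and levels were printed for at least 20 cells, with exact 95% Poisson intervals. Shares have exact Clopper-Pearson intervals. Log2 ratios have 1 UMI added to each side and exact conditional intervals. For shares at a common depth, each cell was thinned to 5000 UMIs and shallower cells were left out. A sum of 0 was set to 3 counts for a bound. No test was run, since each region and stage was 1 sample of pooled mice.

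Profiles compared cells with Kit and Ano1 with the other cells of their label, over genes with at least 20 UMIs. The 2-fold limit was set on ratios taken after the UMI was added. The genes named were the 10 highest and 10 lowest with at least 50 UMIs, the list genes past the limit, and the 5 genes most like each member over groups, from genes with at least 100 UMIs. Of list genes short of the limit, those printed were chosen after their values were seen. Promoter windows came from RefSeq and gene positions from GENCODE M21 (GRCm38). The scripts were tested on simulated data. The members and lists were chosen with earlier results of these data known. Alternatives were each cell's own CPM, stricter cell filters, removal of the top 1% of cells by a gene's UMIs, another library size, other detection limits and depths, weighting by group, and single clusters.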

Additional observations from a re-analysis of the deposited data

Results flagged for a closer look

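In 6 cases the same contrast of stages went up in one region and down in another, each past its counting interval. With 1 pooled sample per region and stage the differences were not tested. Stromal Etv1 from E15 to E19 had a log2 ratio of 0.67 at the GE-SCJ and -0.75 in the esophagus, a difference of 1.42. From E19 to the pup it was 1.39 in the esophagus and -0.77 at the GE-SCJ, a difference of 2.16. Stromal Kitl from E15 to E19 was 1.13 at the GE-SCJ and -0.50 in the esophagus, a difference of 1.63.

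Columnar Kit from E15 to the pup was 0.23 in the stomach and -0.68 at the GE-SCJ, a difference of 0.92. Immune Kit from E15 to E19 was 1.48 at the GE-SCJ and -2.91 in the stomach, a difference of 4.40, and rests on few cells. Squamous Epithelial Kitl from the pup to the adult was 1.71 in the esophagus and -1.76 at the GE-SCJ, a difference of 3.46. The esophagus ratio had an interval of 0.083 to 4.03 and rests on 2 pup UMIs in 56 cells.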

How the results depend on the processing

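Over 35 results and 141 alternatives, 76 values stayed within their counting interval or, for counts of genes, near the reported count, 64 moved and 1 reversed, and for those that moved the cause was not tested. With CPM computed in each cell and then averaged, Kit was 85.8 CPM in Stromal, 69.4 in Columnar and 214 in E15 stomach Stromal cells, Ano1 160 in Stromal-2 and 65.4 in Smooth Muscle, Etv1 127 in Stromal and 122 in Neural, and Kitl 145 in Smooth Muscle, so the order of Etv1 in Neural and Stromal turned. Without the 1% of cells richest in the gene these were 39.4, 59.8 and 128 for Kit, 52.6 for Ano1 in Smooth Muscle, 89.2 and 108 for Etv1, and 158 for Kitl. With mitochondrial, ribosomal and hemoglobin genes left out of the library size, Kit was 76.6, 85.9 and 196, Ano1 165 and 74.8, Etv1 136 and 190, and Kitl 332 in Endothelial, 214 in Smooth Muscle and 319 in E19 stomach Smooth Muscle. Keeping cells of 1000 or more UMIs with no more than 10% of them mitochondrial, Columnar Kit was 59.9.

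The log2 ratio of Stromal Kit, stomach over esophagus, was 2.39 for E15 and 1.96 for E19 with averaged single-cell CPM, and 3.00 for E15, 2.50 for E19 and 2.05 for the pup without the richest cells. Within cluster 3, a check added after seeing the data, it reversed to -0.015 for E19 and was 2.22 for E15 and 1.18 for the pup. Stomach Kit, E19 over E15, was -1.41 without the richest cells and -0.15 in cluster 3. Etv1, stomach over esophagus, was 2.57 for E15 without the richest cells and 1.60 for E19 in cluster 3, and Kitl in stomach Smooth Muscle, pup over E19, was -0.65 in cluster 4.

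At a limit of 2 UMIs, 5000 UMIs per cell and 2000 UMIs per cell, Kit was found in 6.74%, 8.13% and 6.50% of Stromal and 38.2%, 23.9% and 14% of Columnar cells, and Kit with Ano1 in 1.71%, 2.18% and 1.09% and in 13.1%, 4.37% and 1.24%. Ano1 in Kit-positive Stromal cells was at 25.4% with the limit of 2 and 16.7% at 2000 UMIs, and in Kit-negative cells at 3.58%, 7.52% and 2.89%. Kit in Immune cells was at 2.54% and 2.84% with the limit of 2 and at 2000 UMIs.

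The pooled profile had 209 genes higher and 695 lower after weighting by group. The Stromal profile had 698 higher and 891 lower after weighting, and 2706 higher at a limit of 2 UMIs and 838 for genes with at least 50 UMIs. Weighting also changed the weight of the added UMI, and these changes were not told apart. Over the 20 Stromal and Smooth Muscle groups, r was 0.48 for Kit and Fkbp11, 0.29 for Ano1 and Arhgap6 and 0.65 for Kitl and Csrp2. Leaving out possible doublets (the deepest 5% of each label, and cells with Epcam or Ptprc UMIs outside the labels that express them) kept 102 of the 134 Stromal cells with Kit and Ano1. No paired analysis was possible because each region and stage was 1 sample.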
